A study of Mus musculus with 2 samples.

Results

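The alpha- and beta-tubulin isotype genes of the mouse heart were described together with Uchl1, a ubiquitin C-terminal hydrolase. The members were taken by gene symbol from the deposited table of RNA-seq read counts: Tuba1a, Tuba1b, Tuba1c and Tuba4a among the alpha-tubulins, Tubb2a, Tubb2b, Tubb4b, Tubb5 and Tubb6 among the beta-tubulins, and Uchl1. These are 10 of the 24542 gene symbols in the table, and all 10 passed the filter on low counts, as did 14466 symbols in all. The groups were NRK-2 KO mice, which lack nicotinamide riboside kinase 2 (gene symbol Nmrk2), and littermate controls, all male and of the C57BL/6 strain. Mice of both genotypes had the left anterior descending coronary artery tied off permanently near its origin, and total RNA was taken 7 days later from left ventricle remote from the infarct, with scar and border zone removed. No unligated hearts were among the groups, so every value describes infarcted hearts. The labels list 1 sample per genotype, whereas the table holds 3 libraries per genotype, called KO 1 to KO 3 and control 1 to control 3 here. The labels do not say how the gene was deleted, in which cells, or whether the 3 libraries came from separate animals. The p-values therefore refer to the spread among these libraries, and the labels do not say whether that spread is between animals.

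Alpha- and beta-tubulin proteins join as pairs, and the pairs stack into microtubules, which carry cargo through the cardiomyocyte and resist its shortening. The isotypes are encoded by separate genes, and the last codons encode the tail that projects from the microtubule and is modified there. Most alpha-tubulins end in tyrosine, which vasohibin enzymes remove together with their partner Svbp and tubulin tyrosine ligase (Ttl) puts back. Cells also adjust tubulin mRNA to the amount of free tubulin: the factor Ttc5 reads the first residues of a tubulin as it leaves the ribosome and recruits Scaper and the Cnot11 adaptor of the mRNA deadenylation complex. Uchl1 is abundant in neurons and neuroendocrine cells, where it binds ubiquitin and cleaves small groups from its C-terminal end.

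The 2 ends of the coding region bear on how tubulin mRNA and protein are regulated. They are shown 5′ to 3′ on the coding strand, from the GENCODE M21 transcripts (GRCm38) that GENCODE links to the deposited RefSeq identifiers. The linked and deposited transcripts can differ in length, as for Tuba1a with 1803 bases in GENCODE and 1591 in the deposited table. The start of the coding region is printed first, with its first 4 codons in capitals, because these codons are what the Ttc5 pathway reads in the nascent protein.
Tuba1a start: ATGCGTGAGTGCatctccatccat
Tuba1b start: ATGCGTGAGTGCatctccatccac
Tuba1c start: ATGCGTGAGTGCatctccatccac
Tuba4a start: ATGCGCGAGTGCatttcagtccat
Tubb2a start: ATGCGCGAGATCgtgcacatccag
Tubb2b start: ATGCGAGAGATCgtgcacattcag
Tubb4b start: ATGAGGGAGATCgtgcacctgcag
Tubb5 start: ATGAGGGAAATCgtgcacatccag
In the capitals the alpha-tubulins read methionine, arginine, glutamate and cysteine, and the beta-tubulins methionine, arginine, glutamate and isoleucine.

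The end of the coding region follows for Tuba4a and 4 beta-tubulins, with the last codon before the stop in capitals, because the isotypes differ there and because this is where a terminal tyrosine is or is not encoded.
Tuba4a end: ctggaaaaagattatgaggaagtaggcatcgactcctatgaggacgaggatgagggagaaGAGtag
Tubb2a end: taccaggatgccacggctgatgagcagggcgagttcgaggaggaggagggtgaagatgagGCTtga
Tubb2b end: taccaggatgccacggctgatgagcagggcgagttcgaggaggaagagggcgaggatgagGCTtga
Tubb4b end: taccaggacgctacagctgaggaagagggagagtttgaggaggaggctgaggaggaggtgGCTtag
Tubb5 end: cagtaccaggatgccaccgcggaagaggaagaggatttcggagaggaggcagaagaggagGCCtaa
Tuba4a ends in a glutamate codon (GAG), so its protein is made without the terminal tyrosine. The 4 beta-tubulins shown end in an alanine codon. Over the stretch printed, Tubb2a and Tubb2b were 95.5% identical.

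The genes lie on 7 chromosomes of the mm10 build. Tuba1a (gene ID 22142, chr15:98949847-98953501), Tuba1b (22143, chr15:98931431-98934390) and Tuba1c (22146, chr15:99029891-99038105) are neighbours on chromosome 15. Tubb2a (22151, chr13:34074280-34078008) and Tubb2b (73710, chr13:34127008-34130354) are neighbours on chromosome 13. Tuba4a (22145) spans chr1:75214972-75219294, Tubb4b (227613) chr2:25222158-25224702, Tubb5 (22154) chr17:35833920-35838301, Tubb6 (67951) chr18:67390731-67402749 and Uchl1 (22223) chr5:66676121-66687234. Each tubulin gene has 4 exons and a coding region of 1335 to 1356 bases, and Uchl1 has 9 exons and 672 coding bases. Tuba1a and Tuba1b overlap the annotated gene Gm49450 on their own strand. Tuba1b also overlaps the antisense gene Gm41396, Tuba4a the opposite-strand gene Stk16, Tubb4b the opposite-strand gene Fam166a and Uchl1 the antisense gene Uchl1os. Whether counting used strand is not known here, so reads of these overlapping pairs cannot be told apart.

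The near-identical copies limit how far reads can be assigned to 1 gene. The coding regions of Tuba1a and Tuba1b are 98.3% identical, those of Tuba1a and Tuba1c 97.1% and those of Tubb2a and Tubb2b 96.5%, whereas Tuba4a is 84.7% to 85.2% identical to the other 3 alpha-tubulins. Of all stretches of 50 bases in the mRNA, 72.9% in Tuba1a, 73.8% in Tuba1b, 61.0% in Tuba1c, 49.6% in Tubb2a, 39.3% in Tubb2b and 50.9% in Tubb4b also occur exactly in the transcripts of another annotated gene, pseudogenes included. The share is 1.11% in Tuba4a and 0.115% in Tubb5, and it is 0 in Tubb6 and Uchl1. No source used here tells how shared reads were counted, so the split among Tuba1a, Tuba1b and Tuba1c, the split between Tubb2a and Tubb2b, and the Tubb4b level are uncertain. Tuba4a, Tubb5, Tubb6 and Uchl1 carry little or none of this limit.

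The 6 libraries held 22377348 to 33086384 counted reads. The deleted gene did not separate the groups: Nmrk2 (gene ID 69564, chr10:81198170-81202037) had 808, 9 and 0 reads in KO 1, KO 2 and KO 3, against 308, 270 and 118 reads in controls 1 to 3. A count of 0 allows up to 3 reads. The library labelled KO 1 thus goes against its label, having more Nmrk2 reads than any control library, so the groups are called the libraries labelled KO and labelled control, and results are also given without KO 1. The cardiomyocyte markers were abundant in every library, with 10 of 10 genes tested and summed levels of 25191 to 44323 CPM (reads scaled to library size) in the libraries labelled KO and 52493 to 87040 CPM in those labelled control. The summed levels of these markers therefore did not overlap between the groups. Of the 10 genes 0 passed edgeR's test, while 8 were lower at an unadjusted p under 0.05 and DESeq2 called 8. Among all genes tested, 3.7% passed edgeR's test, 25.9% had an unadjusted p under 0.05 and DESeq2 called 2445 of 14466.

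The markers of atrial muscle did not all go the same way. Nppa, 1 of them, was higher in every library labelled KO. Its CPM was 2419, 2350 and 3022 in the libraries labelled KO, against 442, 572 and 108 in those labelled control. Myl7 and Myl4 instead set libraries apart across the genotypes. Myl7, the atrial light chain of myosin, had 3672, 41 and 6 reads in KO 1, KO 2 and KO 3, against 4170, 3365 and 0 reads in controls 1 to 3. Myl4, a further atrial light chain, had 9137, 223 and 69 reads in the libraries labelled KO, against 4165, 3653 and 57 reads in those labelled control. KO 1, control 1 and control 2 thus held far more of these RNAs than KO 2, KO 3 and control 3. These are also the libraries with the 3 highest Nmrk2 counts. The part of this split in the members' values was not tested, and the values with single libraries left out are given beside the results they change.

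Among the 10 members, 1 gene rose in the libraries labelled KO and 0 fell by edgeR's quasi-likelihood test at a Benjamini-Hochberg adjusted p under 0.05. Of the 14466 genes tested, 2.61% rose and 1.09% fell, or 3.7% in all. Uchl1 was the gene that rose. Of the 9 tubulins 0 passed this test, 3 were higher and 1 lower at an unadjusted p under 0.05, and DESeq2 called Tubb2a and Tubb2b as higher and Tuba4a as lower. Over all genes tested 25.9% had such an unadjusted p, against 5 of the 10 members. DESeq2 called 2445 of the 14466 genes, against 4 of the 10 members. In 4 members every library labelled KO lay above every control library, and in 1 member every one lay below. Over all genes tested those shares were 16.4% and 14.5%. The median log2 fold change was 0.41 over the 10 members and 0.01 over all genes tested. Without the library labelled KO 1, 0 members passed edgeR's test, and 2952 genes had an unadjusted p under 0.05. In that fit 88 of the 14735 genes tested passed, against 535 of 14466 with all 6 libraries.

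**Figure D1:**
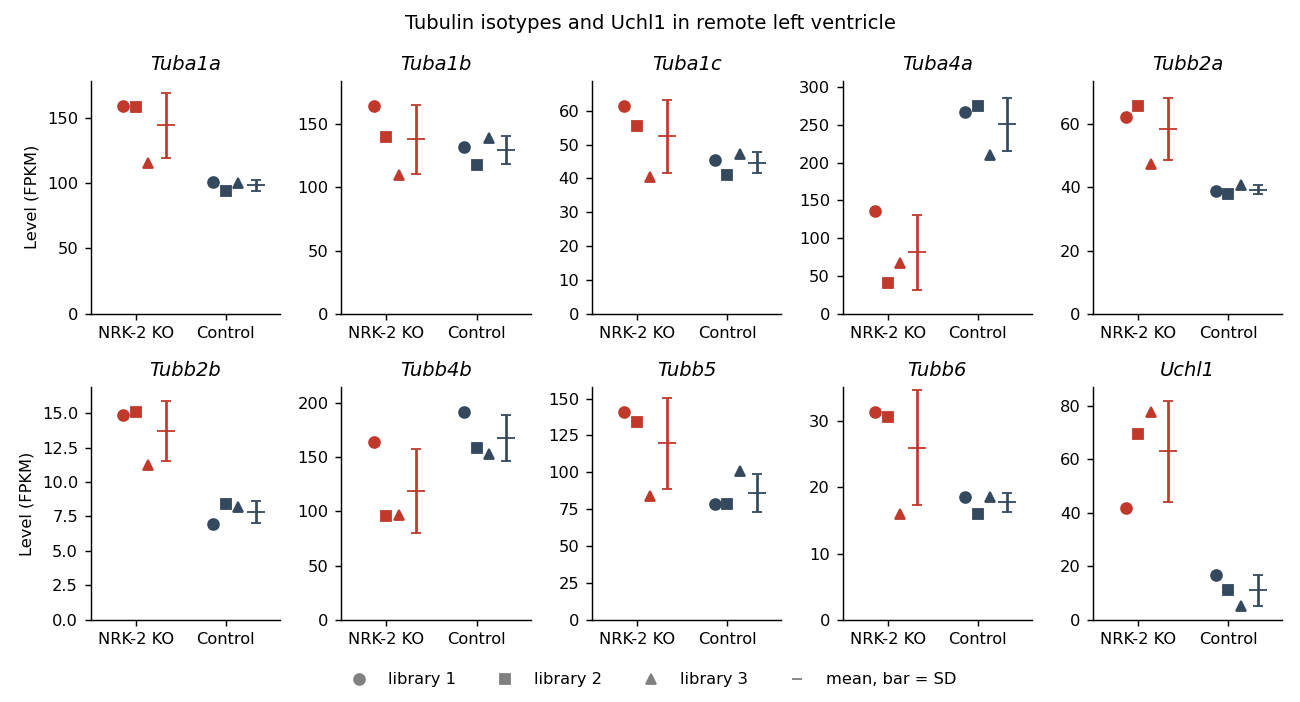
Level of each member, in the authors' FPKM (a level scaled to transcript length and library depth), in the libraries labelled NRK-2 KO and Control. Symbols mark the library number, which does not pair the groups, and each dash with its bar is the mean with its SD (n = 3). Uchl1 was higher in every library labelled KO and Tuba4a lower, while most other members differed by less or overlapped.

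Uchl1, the deubiquitinating enzyme, separated the groups most clearly among the members. Its level was 41.8, 69.3 and 77.6 FPKM in KO 1, KO 2 and KO 3, against 16.7, 11.1 and 5.14 FPKM in controls 1 to 3. The lowest library labelled KO, KO 1, lay above the highest control, control 1. The counted reads were 1386, 2679 and 2445 in the libraries labelled KO, against 435, 294 and 138 in those labelled control. Uchl1 averaged 62.9 ± 18.75 FPKM in the libraries labelled KO and 10.98 ± 5.79 FPKM in those labelled control (SD, n = 3 each). Its log2 fold change was 2.37 (SE 0.483), or 5.17-fold, with an adjusted p of 0.0498 by edgeR's test. That value lies just inside the threshold of 0.05. The spread relative to the mean was 57.5% of the mean CPM in the libraries labelled control, wider than the 29.7% in those labelled KO.

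The call on Uchl1 depended on the libraries and on the settings, while its direction did not. With all 6 libraries its adjusted p in edgeR's test was 0.0514 with RLE size factors, 0.0549 with no filter on low counts and 0.126 with single transcripts. Leaving out each library in turn gave log2 fold changes of 1.99 to 2.84. The adjusted p in edgeR's test stayed under the threshold only without control 3, where it was 0.0171. Leaving out KO 1, KO 2 or KO 3 gave 0.108, 0.157 or 0.124, and leaving out control 1 or control 2 gave 0.0786 or 0.194. Without KO 1 the log2 fold change was 2.59, larger than with it.

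Markers of other cells moved with Uchl1 to different degrees. Markers of autonomic neurons, a cell type known for Uchl1, summed to 6.03 to 7.29 CPM in the libraries labelled KO and 5.69 to 9.91 CPM in those labelled control, which overlapped. Of 10 such markers 3 had enough reads to be tested, and Chat, the acetylcholine-synthesising enzyme, had 0 reads in all 6 libraries. Th, the rate-limiting enzyme of noradrenaline synthesis, had 0, 14 and 3 reads in the libraries labelled KO and 0 reads in each control library. Dbh, the next enzyme towards noradrenaline and 1 of the 3 tested, had 41, 36 and 12 reads in the libraries labelled KO, against 69, 45 and 42 reads in those labelled control. The CPM of Dbh was lower in every library labelled KO, with a log2 fold change of -1.33 (unadjusted p = 0.0473, adjusted p = 0.187 by edgeR's test). The other 2 tested, Stmn2 and Gap43, overlapped, with log2 fold changes of 0.23 and 0.34 (adjusted p = 0.736 and 0.757 by edgeR's test). Stmn2 held the largest part of the sum, at 4.32, 3.84 and 3.83 CPM in the libraries labelled KO. In those labelled control it had 5.20, 2.51 and 2.56 CPM. The part of neurons in the Uchl1 result was not tested. Schwann cell markers summed to 20.4 to 31.0 CPM in the libraries labelled KO and 15.1 to 48.7 CPM in those labelled control.

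The activated-fibroblast markers, taken as a sum, did separate the groups as Uchl1 did. They summed to 5894, 7067 and 7536 CPM in KO 1, KO 2 and KO 3, against 799, 1827 and 848 CPM in controls 1 to 3. Of the 7 markers 3 rose and 0 fell: Postn, which encodes the matrix protein periostin, Cilp, a matrix protein, and Fap, a surface protease. In 5 of the 7 every library labelled KO lay above every control (16.4% over all genes tested), while Acta2 and Tnc overlapped. The largest part of the sum was Postn, at 4473, 5165 and 5853 CPM in the libraries labelled KO. In those labelled control Postn had 362, 1254 and 543 CPM. Postn had a log2 fold change of 2.84 (SE 0.481, adjusted p = 0.0338), Cilp of 3.37 (SE 0.416, adjusted p = 0.0162) and Fap of 0.89 (SE 0.170, adjusted p = 0.0435) by edgeR's test. Of the 7 markers, Cilp was the 1 that passed without KO 1 (adjusted p = 0.0374 by edgeR's test). The sums of the fibroblast markers and of the atrial markers, mainly Nppa, also lay higher in every library labelled KO than in any control. The part of any of these lists in the Uchl1 result was not tested.

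Over the 6 libraries, the 5 genes at a mean of at least 5 CPM whose log2(CPM + 1) followed Uchl1 most closely were Lrp5, Ctsd, Wwtr1, Adamtsl2 and F2r, out of 11407 ranked. Lrp5 is a Wnt co-receptor, Ctsd the lysosomal protease cathepsin D, Wwtr1 the transcriptional coactivator TAZ, Adamtsl2 a secreted matrix protein and F2r a thrombin receptor. Their Pearson r lay between 0.994 and 0.995 over 6 libraries that share the same group split. Adamtsl2 had 163, 239.8 and 223 CPM in the libraries labelled KO, against 67.5, 41.7 and 20.6 CPM in those labelled control. Lrp5 ordered the 6 libraries as Uchl1 did over a narrower span, with 121, 128 and 138 CPM in the libraries labelled KO, against 108, 97.8 and 83.1 CPM in those labelled control.

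Among the alpha-tubulins, Tuba4a had the largest difference in level. It is an alpha-tubulin without an encoded terminal tyrosine and a major isotype of adult muscle. Tuba4a had 136, 40.6 and 66.4 FPKM in KO 1, KO 2 and KO 3, against 267, 275 and 209.6 FPKM in controls 1 to 3. The groups did not overlap, and KO 1 lay nearest to the controls. Tuba4a averaged 81.0 ± 49.4 FPKM in the libraries labelled KO and 250.5 ± 35.7 FPKM in those labelled control (SD, n = 3 each). Its log2 fold change was -1.73 (SE 0.456), 3.32-fold lower, and it did not pass the test after adjustment over all genes (adjusted p = 0.0809 by edgeR's test; unadjusted p = 0.00697). Of its 3 listed transcript variants, variant 1 held 96.2% to 98.7% of the reads in every library.

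The size of the Tuba4a difference depended on single libraries. Without KO 1 its log2 fold change was -2.35 (adjusted p = 0.0739), and over all left-out libraries it ran from -2.35 to -1.40 in edgeR's fit. Without control 3 it passed, with a log2 fold change of -1.91 and an adjusted p of 0.0333. The summed cardiomyocyte markers were also lowest in KO 2, at 25191 CPM, and highest in controls 1 and 2, at 87040 and 83279 CPM, which are the libraries at the ends of the Tuba4a range. Control 3 lay between the other controls and the libraries labelled KO in both, with 52493 CPM of the markers and 416 CPM of Tuba4a. KO 1 and KO 3 were close in these markers, at 43470 and 44323 CPM, but had 286 and 140 CPM of Tuba4a. In bulk tissue, fewer cells of a type and less RNA per cell cannot be told apart, and the part of cardiomyocyte RNA in the Tuba4a values was not tested.

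The other 3 alpha-tubulins lie side by side on chromosome 15. Tuba1a, the alpha-tubulin best known from developing and adult neurons, had 159, 158 and 115 FPKM in KO 1, KO 2 and KO 3, against 101.2, 93.7 and 100.5 FPKM in controls 1 to 3. All libraries labelled KO lay above all controls. The fitted log2 fold change was 0.45 (SE 0.157), or 1.36-fold, which did not pass edgeR's test (adjusted p = 0.137). Without KO 1 it was 0.35 (adjusted p = 0.337).

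Tuba1b, a broadly expressed alpha-tubulin, had 165, 139.9 and 110.2 FPKM in the libraries labelled KO, against 132, 118 and 139 FPKM in those labelled control. The groups overlapped, with a log2 fold change of -0.01 (SE 0.169, adjusted p = 0.981 by edgeR's test) whose sign turned with the scaling, to 0.09 with library totals. Tuba1c, the third gene of the cluster, had 61.5, 55.5 and 40.5 FPKM in the libraries labelled KO, against 45.5, 41.1 and 47.2 FPKM in those labelled control. It overlapped too, with a log2 fold change of 0.13 (SE 0.166, adjusted p = 0.66 by edgeR's test) that was -0.02 without KO 1.

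Because reads of these 3 genes may have been exchanged, their counts were also summed, a choice made after seeing the data. The sum was 631, 548 and 437 CPM in KO 1, KO 2 and KO 3, against 509, 460.3 and 445 CPM in controls 1 to 3. The ranges overlapped, and the log2 fold change was 0.19 (SE 0.173, adjusted p = 0.522 by edgeR's test).

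The beta-tubulins split into Tubb4b, which was lower in the mean, and 4 genes that were higher. Tubb2b, a class II beta-tubulin known from the developing brain, was the least abundant of the 5 but had the largest fitted log2 fold change. It had 14.9, 15.1 and 11.2 FPKM in KO 1, KO 2 and KO 3, against 6.92, 8.40 and 8.20 FPKM in controls 1 to 3. The groups did not overlap, and the log2 fold change of 0.70 (SE 0.159), or 1.63-fold, did not pass edgeR's test (adjusted p = 0.0636; unadjusted p = 0.00328). It was 0.62 without KO 1 (adjusted p = 0.174) and passed without control 3 (adjusted p = 0.0414).

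Tubb2a, its neighbour on chromosome 13, had 62.4, 65.8 and 47.3 FPKM in the libraries labelled KO, against 38.7, 38.0 and 40.9 FPKM in those labelled control. The groups did not overlap, and the 3 controls were close to one another. The log2 fold change of Tubb2a was 0.47 (SE 0.139), or 1.39-fold, with an adjusted p of 0.0976 by edgeR's test, and 0.41 without KO 1 (adjusted p = 0.245). Summing the counts of Tubb2a and Tubb2b gave 128, 127 and 97.8 CPM in the libraries labelled KO, against 84.0, 85.9 and 76.9 CPM in those labelled control. The summed pair did not overlap and had a log2 fold change of 0.52 (SE 0.139, adjusted p = 0.0852 by edgeR's test).

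Tubb4b, an abundant isotype that is also used in cilia, had 164, 96.0 and 96.5 FPKM in KO 1, KO 2 and KO 3, against 192, 158 and 153 FPKM in controls 1 to 3. KO 1 lay within the control range and the other 2 libraries labelled KO lay below it. Tubb4b had a log2 fold change of -0.60 (SE 0.267, adjusted p = 0.211 by edgeR's test), or -0.93 without KO 1 (adjusted p = 0.13).

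Tubb5, the isotype found in nearly all cells, had 141, 134 and 84.2 FPKM in the libraries labelled KO, against 78.8, 78.5 and 100.9 FPKM in those labelled control. KO 1 and KO 2 lay above all controls, whereas KO 3 lay among them. For Tubb5 the log2 fold change was 0.38 (SE 0.202, adjusted p = 0.287 by edgeR's test). Without KO 1 it was 0.23 (adjusted p = 0.598). Tubb6, a divergent beta-tubulin, was likewise highest in KO 1 and KO 2, with 31.3, 30.5 and 16.0 FPKM in the libraries labelled KO, against 18.6, 16.0 and 18.5 FPKM in those labelled control. The Tubb6 level of KO 3 was the lowest of all 6 libraries. For Tubb6 the log2 fold change was 0.44 (SE 0.251, adjusted p = 0.31 by edgeR's test), or 0.26 without KO 1 (adjusted p = 0.627).

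The markers of dividing cells ran in the same order among the libraries labelled KO as Tubb5 and Tubb6, with KO 1 highest and KO 3 lowest. They summed to 451, 319 and 142 CPM in KO 1, KO 2 and KO 3, against 192, 154 and 178 CPM in controls 1 to 3. In CPM, Tuba1a, Tuba1b, Tuba1c, Tubb2a and Tubb2b also ran in that order among the libraries labelled KO, while Tuba4a, Tubb4b and Uchl1 did not. Among the controls, the markers and Tubb6 were highest in control 1, whereas Tubb5 was highest in control 3, at 252 CPM. Of these 8 markers 0 passed edgeR's test, 2 were higher at an unadjusted p under 0.05 and DESeq2 called 2. Such an unadjusted p was found in 25.9% of all genes tested, and DESeq2 called 2445 of those 14466. Fibroblast markers summed to 28815, 35378 and 23727 CPM in the libraries labelled KO, against 8335, 18509 and 18992 CPM in those labelled control. These fibroblast sums did not overlap between the groups. The part of either list in the tubulin values was not tested.

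**Figure D2:**
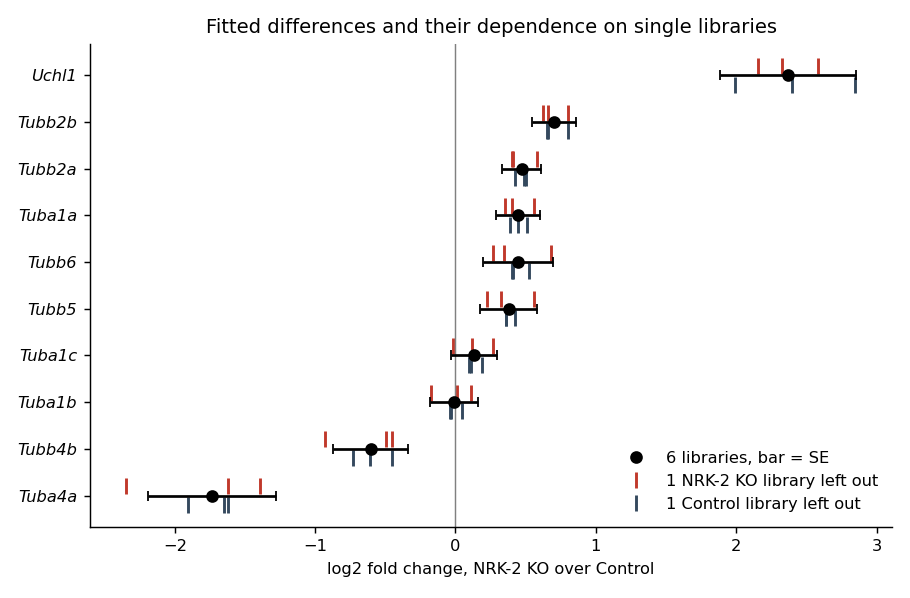
Fitted log2 fold change of each member, libraries labelled NRK-2 KO over those labelled Control, from all 6 libraries (dot, with its SE as a bar) and with 1 library left out (ticks). Uchl1 stayed between 1.99 and 2.84, Tuba4a ran from -2.35 to -1.40, and the ticks of Tuba1b and Tuba1c lay on both sides of 0.

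**Figure D3:**
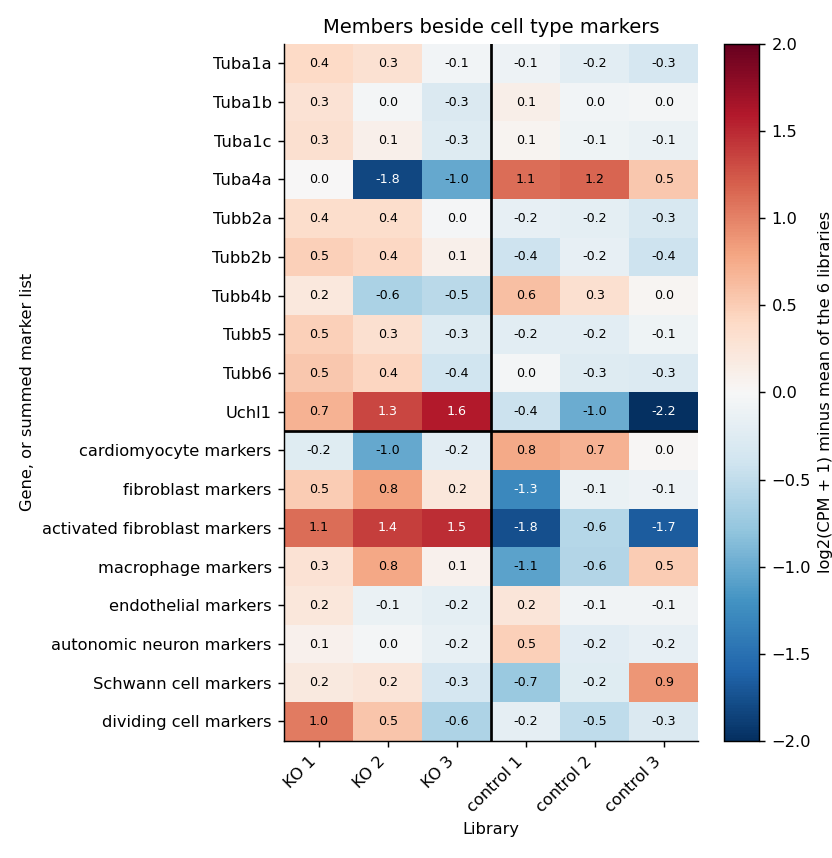
Members and summed cell type markers in each library, as log2(CPM + 1) minus the mean of the 6 libraries. The colour scale ends at 2 on either side of 0, and the numbers in the cells are the plotted values. Uchl1, Tubb2b and the fibroblast and activated-fibroblast markers were above their mean in all 3 libraries labelled KO and below it in all 3 controls. Tuba4a was at its mean in KO 1, below it in KO 2 and KO 3, and above it in the controls.

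Per length, the order of the isotypes differed between the groups. In the libraries labelled KO the mean FPKM ran, from high to low, in the order Tuba1a, Tuba1b, Tubb5, Tubb4b, Tuba4a, Uchl1, Tubb2a, Tuba1c, Tubb6 and Tubb2b. The ranges of all neighbours in that order overlapped except Tuba1c with Tubb6 and Tubb6 with Tubb2b. In the libraries labelled control the order was Tuba4a, Tubb4b, Tuba1b, Tuba1a, Tubb5, Tuba1c, Tubb2a, Tubb6, Uchl1 and Tubb2b. There the ranges of neighbours overlapped only for Tuba1a with Tubb5, Tubb6 with Uchl1 and Uchl1 with Tubb2b.

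The total amount of tubulin transcript overlapped between the groups, while the shares of most isotypes within the alpha- and the beta-tubulins did not. The 9 tubulins summed to 1733, 1284 and 1081 CPM in KO 1, KO 2 and KO 3, against 1824, 1732 and 1452 CPM in controls 1 to 3, and the ranges overlapped. In FPKM the sum was 752.8 ± 174 in the libraries labelled KO and 842 ± 33.8 in those labelled control (SD, n = 3 each). All alpha-tubulins together had 574, 412 and 358 FPKM in the libraries labelled KO, against 665, 625 and 567 FPKM in those labelled control. Only KO 1 reached that control range. All beta-tubulins together had 421, 348 and 260 FPKM in the libraries labelled KO, against 338, 303 and 324 FPKM in those labelled control, which overlapped. The shares that follow are of all alpha-tubulin or all beta-tubulin FPKM, with Tuba8, Tubb3 and Tubb4a included. They are descriptions from the authors' FPKM, with no test and no count over all genes beside them, and they carry the uncertainty of the shared reads. Shares are parts of a whole, so a lower share of 1 isotype goes with higher shares of others. Tuba1b, whose level overlapped, had a share of 31.1 ± 2.69% in the libraries labelled KO. In those labelled control it was 21.1 ± 3.09% (SD, n = 3 each), and the shares were apart.

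Tuba4a made up 23.7%, 9.86% and 18.5% of alpha-tubulin FPKM in KO 1, KO 2 and KO 3, against 40.1%, 44.0% and 37.0% in controls 1 to 3. Tuba8, a further alpha-tubulin of heart and skeletal muscle that was not a member, made up 9.22%, 4.20% and 7.22% in the libraries labelled KO, against 17.98%, 15.6% and 12.3% in those labelled control. Tuba1a made up 27.7%, 38.5% and 32.2% in the libraries labelled KO, against 15.2%, 15.0% and 17.7% in those labelled control. None of these 3 shares overlapped between the groups. In the libraries labelled control Tuba4a thus exceeded Tuba1a, with ratios of 2.64, 2.93 and 2.09, whereas in KO 1, KO 2 and KO 3 the ratios were 0.854, 0.256 and 0.576.

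Among the beta-tubulins Tubb4b made up 39.0%, 27.6% and 37.1% of FPKM in KO 1, KO 2 and KO 3, against 56.7%, 52.2% and 47.2% in controls 1 to 3. Tubb5 made up 33.5%, 38.5% and 32.3% in the libraries labelled KO, against 23.3%, 25.9% and 31.1% in those labelled control. Tubb2a averaged 17.3 ± 2.19% in the libraries labelled KO and 12.2 ± 0.632% in those labelled control (SD, n = 3 each). Tubb6 averaged 7.45 ± 1.32% in the libraries labelled KO and 5.50 ± 0.222% in those labelled control. Tubb3, the beta-tubulin used as a neuronal marker, held 1.51 ± 0.102% in the libraries labelled KO and 0.665 ± 0.347% in those labelled control. Each of these 5 shares was apart between the groups, although the FPKM levels of Tubb4b, Tubb5 and Tubb6 overlapped. The share of the rare Tubb4a overlapped.

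**Figure D4:**
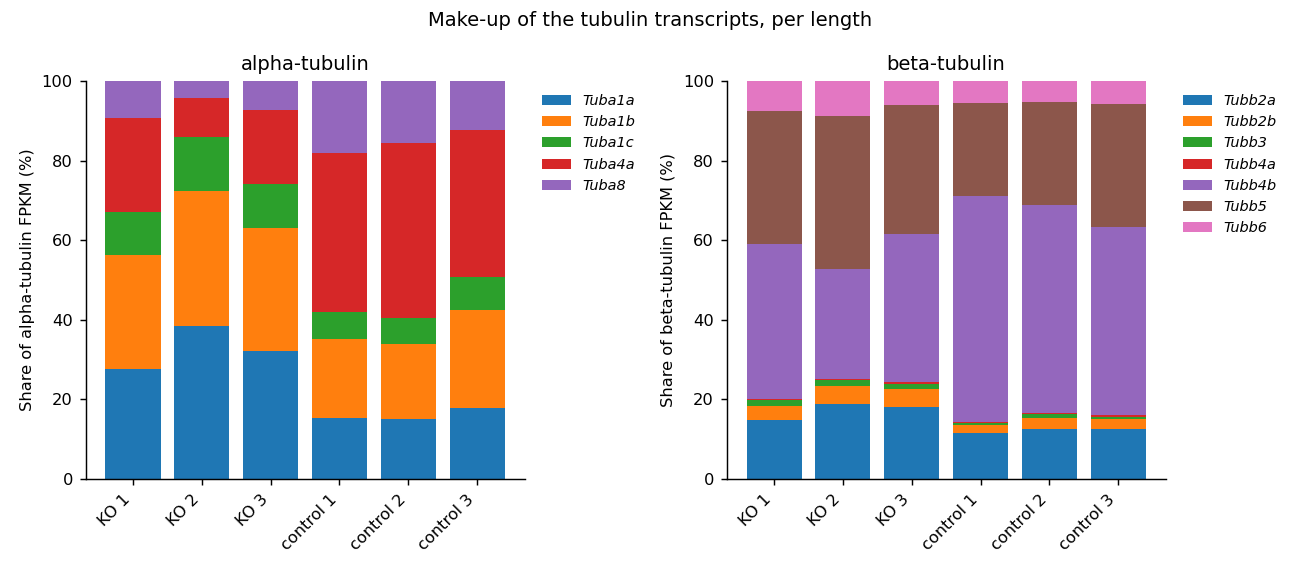
Share of each isotype in the summed alpha-tubulin FPKM and in the summed beta-tubulin FPKM of each library, in percent. Bars are stacked to 100 and libraries labelled KO stand on the left. Tuba4a held 9.86% to 23.7% of the alpha-tubulin in the libraries labelled KO and 37.0% to 44.0% in those labelled control, and Tubb4b held 27.6% to 39.0% of the beta-tubulin in the libraries labelled KO and 47.2% to 56.7% in those labelled control.

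The genes most like the summed CPM of the 9 tubulins over the 6 libraries were 1110008F13Rik, Dnajc24, Tal1, Prpf6 and Jmjd6, with Pearson r of 0.979 to 0.991. Their levels overlapped between the groups, as the tubulin sum did.

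The genes that fold, modify, bind and move along microtubules were described as 9 lists of 136 symbols, of which 127 were tested. In these lists 3 genes rose and 3 fell, and the fitted log2 fold change was above 0 in 64 genes and below 0 in 63, with a median of 0.00. Over all genes tested 2.61% rose and 1.09% fell, and 25.9% had an unadjusted p under 0.05. DESeq2 called 21 of the list genes, and 2445 of all 14466 genes tested. These figures for all genes are the comparison for the counts of each list below. Without the library labelled KO 1, 0 of the 127 passed edgeR's test.

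All 3 genes that rose were microtubule-associated proteins, of 26 tested in that list with a median log2 fold change of -0.01. At an unadjusted p under 0.05, 6 genes of the list were higher and 5 lower, and DESeq2 called 5 higher and 2 lower. Without control 3, edgeR's test called 5 higher and 6 lower. The whole table had an unadjusted p under 0.05 in 25.9% of genes. DESeq2 called 2445 of its 14466 genes, and edgeR's test without control 3 called 3628 of 14775. Map1b, which binds and stabilises microtubules in growing axons, had 139, 160 and 143 CPM in KO 1, KO 2 and KO 3, against 81.0, 61.4 and 52.7 CPM in controls 1 to 3. Its log2 fold change was 1.18 (SE 0.177, adjusted p = 0.0268 by edgeR's test). Map1a, its relative in mature neurons, had 48.7, 75.2 and 56.9 CPM in the libraries labelled KO, against 30.4, 29.1 and 25.2 CPM in those labelled control. Map1a had a log2 fold change of 1.10 (SE 0.183, adjusted p = 0.0335 by edgeR's test).

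Map6, which protects microtubules from depolymerising in the cold, had 18.2, 23.0 and 19.8 CPM in the libraries labelled KO, against 7.55, 8.62 and 5.56 CPM in those labelled control. The log2 fold change of Map6 was 1.49 (SE 0.208, adjusted p = 0.0228 by edgeR's test). None of the 3 genes overlapped between the groups. Without KO 1 their log2 fold changes were 1.22 for Map1b, 1.23 for Map1a and 1.56 for Map6, with adjusted p of 0.0908 for Map1b, 0.0679 for Map1a and 0.0761 for Map6. Map4, the main microtubule-associated protein outside neurons, had 340.3, 330.0 and 376 CPM in the libraries labelled KO, against 321, 302 and 238 CPM in those labelled control. Its log2 fold change of 0.28 did not pass edgeR's test (adjusted p = 0.303).

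The 3 genes that fell belong to 3 different lists. Ttll1, the catalytic subunit of an enzyme that adds glutamate chains to tubulin, had 14.6, 8.79 and 13.7 CPM in KO 1, KO 2 and KO 3, against 34.3, 34.9 and 23.2 CPM in controls 1 to 3. Ttll1 had a log2 fold change of -1.32 (SE 0.250, adjusted p = 0.0427 by edgeR's test). Tubg1, the gamma-tubulin that seeds microtubules, had 13.9, 13.4 and 14.2 CPM in the libraries labelled KO, against 23.7, 24.3 and 19.1 CPM in those labelled control. The log2 fold change of Tubg1 was -0.69 (SE 0.141, adjusted p = 0.0498 by edgeR's test).

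Fign, the microtubule-severing enzyme fidgetin, had 10.6, 6.91 and 10.5 CPM in the libraries labelled KO, against 18.5, 19.4 and 18.3 CPM in those labelled control. Fign had a log2 fold change of -1.01 (SE 0.199, adjusted p = 0.0461 by edgeR's test). None of the 3 overlapped between the groups. All 3 lost the call without KO 1, at adjusted p of 0.109 for Ttll1, 0.15 for Tubg1 and 0.117 for Fign, while keeping their direction. Each of the 6 list genes that rose or fell also lost the call without KO 2, KO 3, control 1 or control 2, except Map1b without control 1, and all 6 kept it without control 3. The highest adjusted p of these fits was 0.195, for Tubg1.

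The enzymes that act on the terminal tyrosine gave no call. Vash1, a vasohibin that removes the tyrosine, had 116, 99.8 and 96.2 CPM in the libraries labelled KO, against 89.8, 60.4 and 64.6 CPM in those labelled control. These ranges were apart, with a log2 fold change of 0.54 (SE 0.178, adjusted p = 0.12 by edgeR's test). Its partner Svbp had a log2 fold change of 0.18 (adjusted p = 0.558), and the ligase Ttl, which restores the tyrosine, of -0.21 (adjusted p = 0.63) in the same test. Agtpbp1, which shortens the glutamate chains, had -0.72 (adjusted p = 0.0906). Of the 18 modifying enzymes tested 0 rose and 1 fell, with a median of 0.18. At an unadjusted p under 0.05, 3 were higher and 2 lower, and DESeq2 called 2 higher and 2 lower. The figures for all genes tested were 25.9% for such an unadjusted p and 2445 of 14466 for DESeq2.

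The other tubulins held 11 symbols, of which 8 were tested, with 0 risen and Tubg1 fallen. Tuba8 resembled Tuba4a, with 77.6, 23.99 and 38.2 CPM in KO 1, KO 2 and KO 3, against 195, 159 and 97.0 CPM in controls 1 to 3. Tuba8 had a log2 fold change of -1.69 (SE 0.459, adjusted p = 0.0866 by edgeR's test), and DESeq2 called it lower. Tubb3 had 10.3, 9.15 and 6.68 CPM in the libraries labelled KO, against 3.58, 6.17 and 2.07 CPM in those labelled control, a log2 fold change of 1.15 (adjusted p = 0.144). Tuba3a and Tubal3 had 0 reads in all libraries.

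Among the 20 genes of tubulin folding, which covers prefoldin, the chaperonin and the cofactors that join alpha- to beta-tubulin, 17 had a fitted log2 fold change below 0 and the median was -0.09. None passed edgeR's test, 1 was lower at an unadjusted p under 0.05 and DESeq2 called that gene, the prefoldin subunit Pfdn6 (log2 fold change -0.76, adjusted p = 0.0906 by edgeR's test). The 3 genes of tubulin mRNA autoregulation gave log2 fold changes of 0.04 for Ttc5, -0.18 for Scaper and -0.26 for Cnot11, all overlapping between the groups, with 0 at an unadjusted p under 0.05 and 0 by DESeq2.

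The 17 motor genes gave 0 calls in edgeR's test and a median of 0.22. At an unadjusted p under 0.05, 3 were higher and 1 lower, and DESeq2 called 2 higher and 1 lower. For this and the next 2 lists the figures over all genes were again 25.9% and 2445 of 14466. Kif5b, the main kinesin of the heart, had a log2 fold change of 0.32 (adjusted p = 0.284) in edgeR's test. The 16 destabilisers, severing enzymes and MARK kinases gave 0 risen genes and Fign as the fallen one, with 1 gene higher at an unadjusted p under 0.05 and 0 higher by DESeq2. Of the 12 intermediate filament and actin genes 11 had a fitted log2 fold change above 0, with a median of 0.62. None passed edgeR's test, 4 were higher at an unadjusted p under 0.05 and DESeq2 called 3: Des, Lmna and Vim. Vim, the filament protein of mesenchymal cells, had 1126, 1174 and 822 CPM in the libraries labelled KO, against 584, 569.9 and 616 CPM in those labelled control (adjusted p = 0.0605 by edgeR's test). Des, the filament protein of muscle, had 2161, 2818 and 4336 CPM in the libraries labelled KO, against 2058, 1769 and 1046 CPM in those labelled control (adjusted p = 0.157 by edgeR's test).

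The relatives of Uchl1 gave no call. Of the 7 other ubiquitin hydrolase and ubiquitin genes tested, 0 passed edgeR's test, 0 had an unadjusted p under 0.05 and DESeq2 called 0, with a median log2 fold change of -0.28. Uchl3, the hydrolase closest to Uchl1, had 17.6, 17.6 and 25.1 CPM in KO 1, KO 2 and KO 3, against 23.8, 29.3 and 20.7 CPM in controls 1 to 3. These ranges overlapped, with a log2 fold change of -0.29 (SE 0.202, adjusted p = 0.405 by edgeR's test). Whether Uchl1 and Uchl3 differed from each other in their response was not tested.

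**Figure D5:**
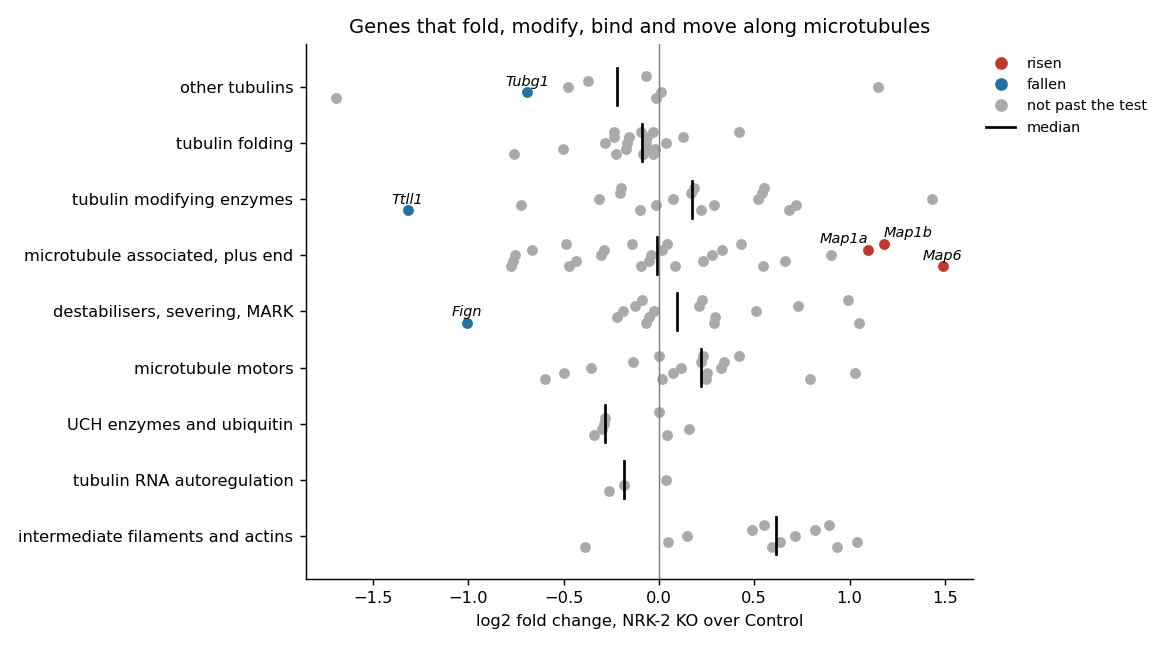
Fitted log2 fold change of each tested gene in the 9 lists, libraries labelled NRK-2 KO over those labelled Control, with the median of each list as a bar. Named genes passed edgeR's test at an adjusted p under 0.05: Map1a, Map1b and Map6 rose and Tubg1, Ttll1 and Fign fell.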

How the data were processed

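RNA-seq of remote left ventricle was analysed from the deposited table of 36780 transcripts, which the file headers give as read counts and FPKM per library. The kit for total RNA was stranded, per the labels' protocols. The submitters' processing notes name HISAT2, Bowtie2 and mm10 without versions. No source used here gives the counting program, annotation, use of strand, read length or treatment of shared reads. The authors' FPKM are scaled to depth and length, so they were used to compare genes; the deposited read counts were used for tests. Columns were matched to genotypes by the initial of the genotype, and 0 value columns were left unmapped.

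Counts were summed per gene symbol, filtered with filterByExpr and scaled by TMM. NRK-2 KO was compared with Control by edgeR's quasi-likelihood test (edgeR 4.0.16, R 4.3.3) with Benjamini-Hochberg adjustment over 14466 genes at a threshold of 0.05. The SE is the absolute log2 fold change divided by the square root of F. CPM use TMM-scaled library sizes. The procedure was tested on simulated data. DESeq2 1.42.0, limma 3.58.1 on log2(FPKM + 1) and log2(FPKM + 0.1), other scalings and filters, a replicate block, single transcripts and leaving out each library were the alternatives. Sequences were read with Biopython 1.88 under Python 3.11.15, and no Tubb6 sequence is shown. Some coding ends are not reported here.

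The members and lists were chosen with earlier results of these data known. Named were the members, Nmrk2, every list gene past the test, otherwise up to 3 per list with the largest change at a mean of at least 5 CPM, and the 5 genes most like Uchl1 and the tubulin sum. Not all genes so named are printed. Tuba8, Tubb3, Tubb4a, Vash1, Svbp, Ttl, Agtpbp1, Map4, Kif5b and the neuronal markers were named in addition, after their values were seen, as were genes that DESeq2 called. The symbol Ccdc23, an older name of Svbp, was not found in the table. Endothelial markers summed to 1335 to 1787 CPM in the libraries labelled KO and 1447 to 1815 CPM in those labelled control. In the libraries labelled KO, pericyte and smooth-muscle markers summed to 1582 to 2023 CPM, macrophage markers to 1536 to 2458 CPM and atrial markers, mainly Nppa, to 2357 to 3025 CPM. In those labelled control the sums were 1835 to 2363 CPM for pericytes and smooth muscle, 682 to 2049 CPM for macrophages and 110.4 to 929 CPM for atrial markers. Of the fibroblast markers 1 of 8 fell, Gsn. Libraries of 1 genotype differed by more than repeat runs would, with a median chi-square per gene of 3.88 to 19.1 against 0.455. The pairs with control 3 were highest, at 19.1 with control 1 and 15.2 with control 2, against 3.88 for controls 1 and 2. Pairs of libraries labelled KO gave 6.17 to 10.8.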

Additional observations from a re-analysis of the deposited data

How the results depend on the processing

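The fitted direction of the 8 members other than Tuba1b and Tuba1c did not change under any alternative run, 0 of 121 values being reversed. Tuba1b, at -0.01 on the log2 scale, turned to 0.093 with library totals, 0.0012 with no filter, 0.0031 with a mean of at least 5 CPM, 0.075 and 0.076 with limma on log2(FPKM + 1) and log2(FPKM + 0.1), and 0.0073 with single transcripts. With 1 library left out it ran from -0.17 to 0.11, above 0 without KO 2, KO 3 or control 1. Tuba1c ran from -0.015 (without KO 1) to 0.27. The median log2 fold change of all genes was 0.01, against 0.11 with library totals and 0.13 with limma on log2(FPKM + 0.1). The 535 genes past the test (378 risen) became 2445 with DESeq2, 864 and 807 with the limma fits at + 1 and + 0.1, 89 with single transcripts and 3 to 3628 with 1 library left out (3 without KO 3, 3628 without control 3, 88 without KO 1, 47 without KO 2, 47 without control 1 and 25 without control 2). The 1 member past the test became 4 with DESeq2, 2 with library totals, 2 with each limma fit, 0 with RLE size factors, no filter or single transcripts, and 0 to 3 with 1 library left out (3 without control 3). The 6 list genes became 21 with DESeq2, 0 with single transcripts and 0 to 26 with 1 library left out (26 without control 3). The cause of these changes was not tested. A left-out library means fewer samples, yet all 3 of these counts were higher without control 3 than with all 6 libraries. Uchl1 passed under 7 of 16 alternatives, with adjusted p of 0.0514 with RLE size factors, 0.0549 with no filter, 0.126 with single transcripts and 1.24e-05 with DESeq2.

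The library numbers come from column names alone. Deviations of same-numbered libraries correlated at 0.35, -0.35 and -0.36 over 9814 genes, so the numbers share no pairing that the data show. Differently numbered libraries correlated at -0.55 (KO 2 with control 1) to 0.61 (KO 2 with control 3), so deviations were shared across the groups without following the numbers. With the replicate block, 6 genes passed in place of 535, 0 members and 0 list genes passed, and Uchl1 had an adjusted p of 0.187; 2838 genes had an unadjusted p under 0.05. Depth limits Nmrk2, whose 0 reads in KO 3 allow 3, while the members had at least 138 reads in every library.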
